A study of Mus musculus with 3 samples.

Results

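The Gpnmb+ Spp1-high infarct macrophages were 236 cells of the 10550 cells kept from 3 single-cell RNA libraries of the neonatal mouse heart. A kept cell held 500 to 30000 unique molecular identifiers (UMIs, each standing for 1 captured RNA molecule) and 500 to 5000 genes, with less than 10% of its UMIs from mitochondrial genes. Members were those kept cells in which the complement genes C1qa, C1qb and C1qc together made up at least 0.3% of UMIs, Spp1 made up at least 1% of UMIs, Gpnmb had at least 1 UMI, and the proliferation genes Mki67 and Top2a had 0 UMIs. The members were thus chosen by the measured UMIs of these 7 genes, whose levels are given as a description only. The limits cut a continuous range of expression, so the members are a range of cells and not a separate type. As a check of the macrophage label, Csf1r, the receptor for macrophage growth factor, which neither the choice nor the sort used, had a UMI in 84.4% of the members from vehicle-treated infarcts and 86.8% of those from SB225002-treated infarcts. Adgre1, which encodes the F4/80 protein on which all cells were sorted, had one in 81.2% and 82.8%. Csf1r was seen in 12.3% and 10.3% and Adgre1 in 12.3% and 5.13% of cells carrying B or T cell markers, which should lack both and which were shallower (a median of 3531 and 2177 UMIs against 8106.5 and 7736.5 in the members).

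Spp1 encodes osteopontin, a secreted phosphoprotein that binds integrins and CD44, and Gpnmb encodes a transmembrane glycoprotein of lysosomes and the cell surface. Together with Trem2, a lipid-sensing receptor that signals through Tyrobp, and Fabp5, a carrier of fatty acids, they mark the lipid-associated state that macrophages take on after clearing dying cells in infarcts, atherosclerotic plaques and obese fat. Cells in this state are known for lysosomal digestion, lipid handling and the secretion of factors that act on matrix and fibroblasts.

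All mice were C57BL/6, operated on at postnatal day 10 (P10) and sampled 72 h, or 3 days, later at the age of 13 days. The groups were P10-sham_vehicle (sham surgery), P10-MI_vehicle (myocardial infarction, MI, by coronary ligation) and P10-MI_SB225002 (the same infarction with SB225002, a drug that blocks CXCR2, the receptor through which neutrophils sense chemokines). Both vehicle groups received the carrier alone. The sort took living CD45+F4/80+7AAD– cells of the infarct and border zones, and the study's methods state that tissue of several hearts was pooled, so each group was 1 library of mixed animals. With 1 library per group, no test between conditions was possible, a condition cannot be told apart from its library, and all intervals below are 95% intervals of counting error only. The libraries held 29323567, 32498608 and 34235864 UMIs in 3390, 4511 and 5783 barcodes, of which 2352, 3454 and 4744 were kept, in the order given above. The libraries shared between 1260 and 1844 barcodes in pairs, and 12 members of P10-MI_vehicle and 82 of P10-MI_SB225002 carried a barcode also present in the other infarct library, 1 of them as a member in both. Of all barcodes, 40.9% of those of P10-MI_vehicle and 31.9% of those of P10-MI_SB225002 were shared between the infarct libraries.

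The members came from infarcted hearts. P10-sham_vehicle contributed 0, P10-MI_vehicle 32 and P10-MI_SB225002 204. Of the C1q+ cells without Mki67 or Top2a UMIs (1198, 1700 and 1958 cells), they made up 0% in P10-sham_vehicle, where a count of 0 allows a share of up to 0.25%, 1.88% in P10-MI_vehicle, with an exact binomial interval from 1.29 to 2.65%, and 10.4% in P10-MI_SB225002, with one from 9.10 to 11.9%. The share under SB225002 was thus 8.54 percentage points above that under vehicle (7.01 to 10.1 points), or 5.53 times as high. Of all kept cells the members were 0.926% and 4.30%. Among cells whose barcode occurred in 1 library only, the shares were 1.88% and 8.91%, and 0 of 491 in P10-sham_vehicle. The difference was 7.95 points (6.39 to 9.55) without cells holding 2 or more UMIs of a shorter list of other-lineage genes, and 7.86 points without cells holding 20 or more UMIs of S100a8 and S100a9, both chosen after seeing the data. When every cell with 2 or more UMIs, in all, from the lists of fibroblast, endothelial, B cell, T and NK cell, mural and neutrophil genes was removed, it was 2.02 points, with an interval of -0.206 to 4.50 that included 0, and rested on 7 members of 467 C1q+ nondividing cells in P10-MI_vehicle and 14 of 398 in P10-MI_SB225002. Those lists include Gsn, with a UMI in 71.9% and 80.4% of the members, and S100a8, with one in 59.4% and 66.2%.

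**Figure D1:**
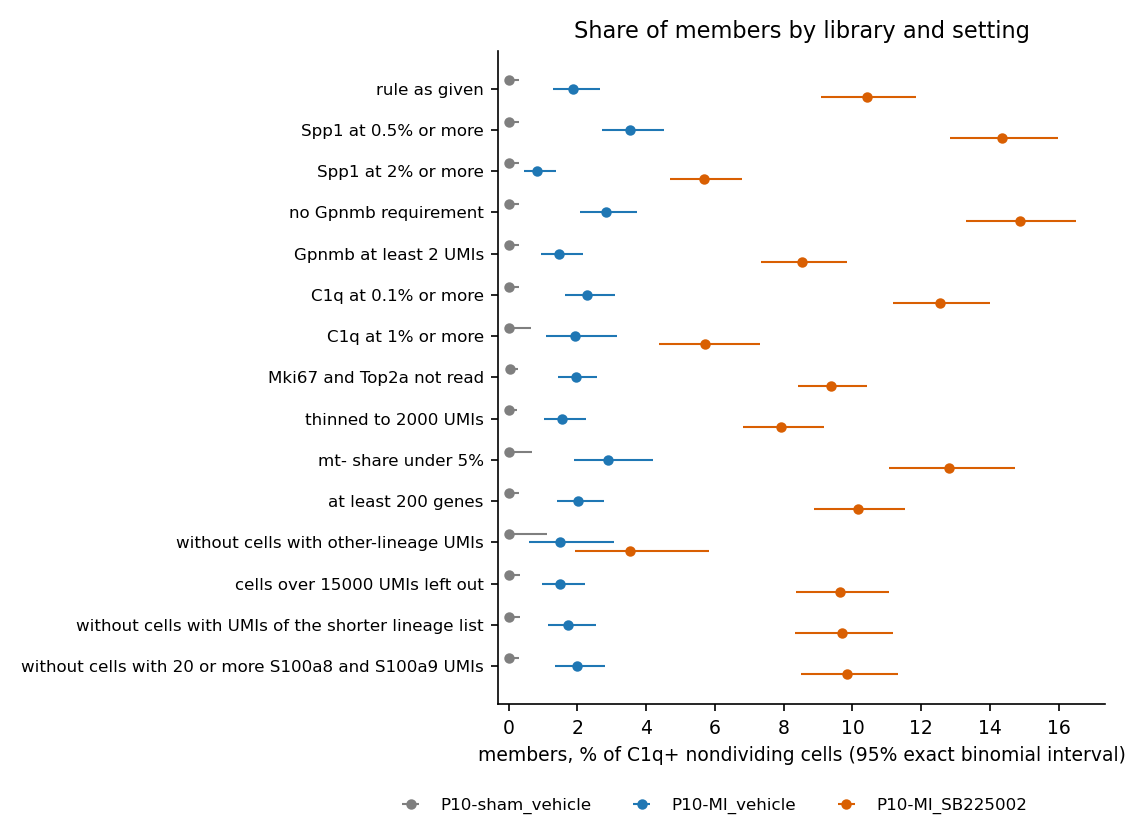
Members as a percentage of C1q+ nondividing cells (x axis, with 95% exact binomial intervals) in each library under the limits as given and 14 other settings (y axis). The P10-MI_SB225002 share lies above the P10-MI_vehicle share in each row, and the intervals meet only in the row without cells holding other-lineage UMIs.

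The genes that chose the cells spanned a wide range in them. Spp1 took up 1.01% of UMIs in the lowest member of P10-MI_vehicle, 1.84% in the median member and 7.03% in the highest. In P10-MI_SB225002 the lowest, median and highest member had 1.0%, 2.14% and 10.4%. Summed over members and scaled to 1000000 UMIs (CPM), Spp1 stood at 25262 CPM in P10-MI_vehicle and 29221 CPM in P10-MI_SB225002, and in the other C1q+ nondividing cells at 88.0 CPM in P10-sham_vehicle, 833 CPM in P10-MI_vehicle and 2820 CPM in P10-MI_SB225002. Gpnmb stood at 910 and 1167 CPM in the members and at 10.7, 45.2 and 87.4 CPM in the other cells. C1qb, which only had to pass a low limit, was at 4137 and 3592 CPM in the members against 3652, 3492 and 4115 CPM in the other cells. The member level of this complement subunit was thus above that of the other cells in P10-MI_vehicle and below it in P10-MI_SB225002.

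Spp1 formed a gradient across C1q+ cells with no gap at the limit. Cells without any Spp1 UMI made up 84.7% of C1q+ nondividing cells in P10-sham_vehicle, 63.5% in P10-MI_vehicle and 25.5% in P10-MI_SB225002. The highest Spp1 share of any such cell in P10-sham_vehicle was 0.647%. Gpnmb was detected in 2.41% of the cells without Spp1 in P10-MI_vehicle and 2.81% in P10-MI_SB225002, and in 58.1% and 63.3% of the cells with 1 to 2% Spp1, so Gpnmb was found more often along the same gradient in both infarct libraries. Just inside the limit lay members with 1.01% and 1.0% Spp1, and just outside it Gpnmb+ cells with 0.999% and 0.976%. Between 1 and 1.2% there were 9 and 22 members, and between 0.8 and 1% there were 7 and 26 Gpnmb+ cells that were left out. A single Gpnmb UMI admitted 7 and 37 members. The Mki67 and Top2a limit removed 17 and 102 cells that otherwise qualified, 34.7% and 33.3% of the class, and 1 such cell in P10-sham_vehicle. In B or T cell marker cells (57 and 39) Spp1 was 0.217% and 0.327% of the summed UMIs of the infarct libraries, with a median of 0 per cell. In each of these libraries 1 such cell reached 1% Spp1. In endothelial marker cells (51 and 154) Spp1 was 0.0021% and 0.0427%, also with a median of 0, and 0 and 1 cells reached 1%.

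**Figure D2:**
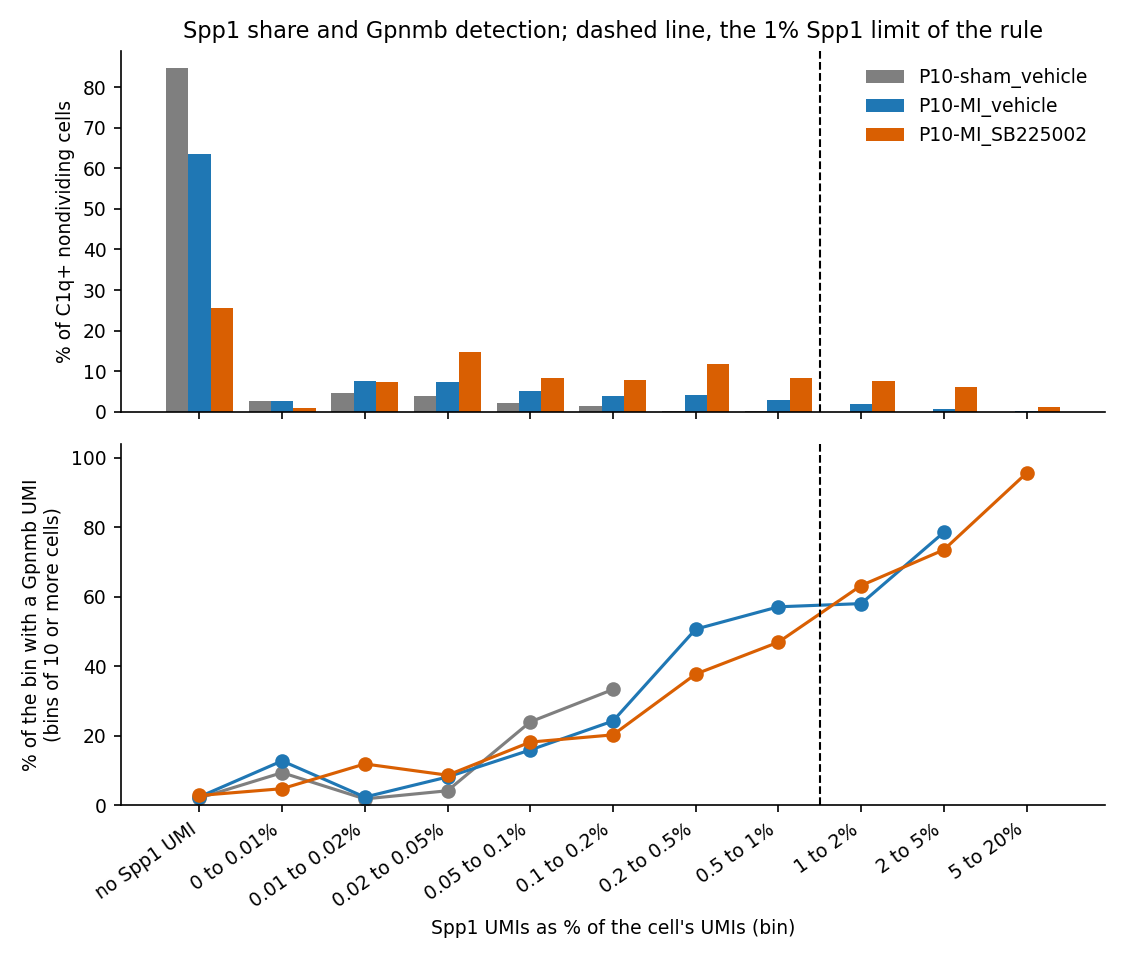
Top, the share of C1q+ nondividing cells of each library (y axis) by the percentage of a cell's UMIs taken by Spp1 (x axis, 11 bins). Bottom, the percentage of cells in a bin with a Gpnmb UMI, for bins of 10 or more cells; the dashed line is the 1% limit, beyond which P10-sham_vehicle has no cells.

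To find what else set these cells apart, the UMIs of the members were summed in each infarct library and compared with those of the other C1q+ nondividing cells of the same library (1668 and 1754 cells) with edgeR's quasi-likelihood test, the library being a block. Of 11896 genes tested, 441 were higher in the members (3.71%) and 495 lower (4.16%) at an adjusted p under 0.05, and 925 of these 936 differed in the same direction in both libraries. The log2 fold changes are adjusted for composition (TMM), and their median over all genes was -0.06. The test asks whether a difference was alike in 2 libraries. It leaves 1 residual degree of freedom, so its spread comes almost wholly from an estimate shared over genes, the p-values may measure technical spread, and genes that vary with Spp1 were bound to differ because Spp1 chose the cells. The members held more UMIs per cell than the other cells (medians of 8106.5 and 7736.5 against 5804 and 4896.5) and a lower mitochondrial share (3.17% and 3.05% against 4.85% and 4.03%). When all cells were thinned to 2000 UMIs, 108 genes were called higher and 92 lower. The part of depth in single results was not tested beyond this.

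The 3 markers that were not used to choose the cells were each higher in them. Fabp5 was at 1907 CPM in the members of P10-MI_vehicle and 3006 CPM in those of P10-MI_SB225002, against 84.2, 194 and 389 CPM in the other cells of the sham, vehicle-treated and SB225002-treated libraries, the order kept below. Mmp12, the macrophage elastase, was at 331 and 190 CPM against 7.31, 16.6 and 40.7 CPM. Trem2 was at 877 and 953 CPM against 305, 367 and 581 CPM. For each gene, both member values exceeded all values of the other cells. The log2 fold changes were 3.26 for Fabp5 (SE 0.12, adjusted p = 5.03e-55), 3.23 for Mmp12 (SE 0.19, adjusted p = 1.31e-34) and 1.11 for Trem2 (SE 0.13, adjusted p = 1.60e-12).

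These markers differed in how many members carried them. A Trem2 UMI was found in 100% and 97.5% of members and in 67.5% and 77.1% of the other cells, and after thinning to 2000 UMIs in 78.6% and 83.3% of members (28 and 192 cells) against 45.3% and 58.5%. Fabp5 was found in 87.5% and 89.7% of members and, after thinning, in 89.3% and 80.7%, against 16.1% and 29.9% of the other thinned cells. Mmp12 was found in 25% and 22.1% of members, and after thinning in 14.3% and 14.1% against 1.56% and 2.21%. Trem2 was thus nearly general among the members, while Mmp12 belonged to a minority. In the B or T cell marker cells a UMI of Trem2 was seen in 10.5% and 10.3%, of Fabp5 in 5.26% and 28.2%, and of Mmp12 in 1.75% and 2.56%. Of the 100 Mmp12 UMIs of the P10-MI_vehicle members, 44 came from 1 cell.

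**Figure D3:**
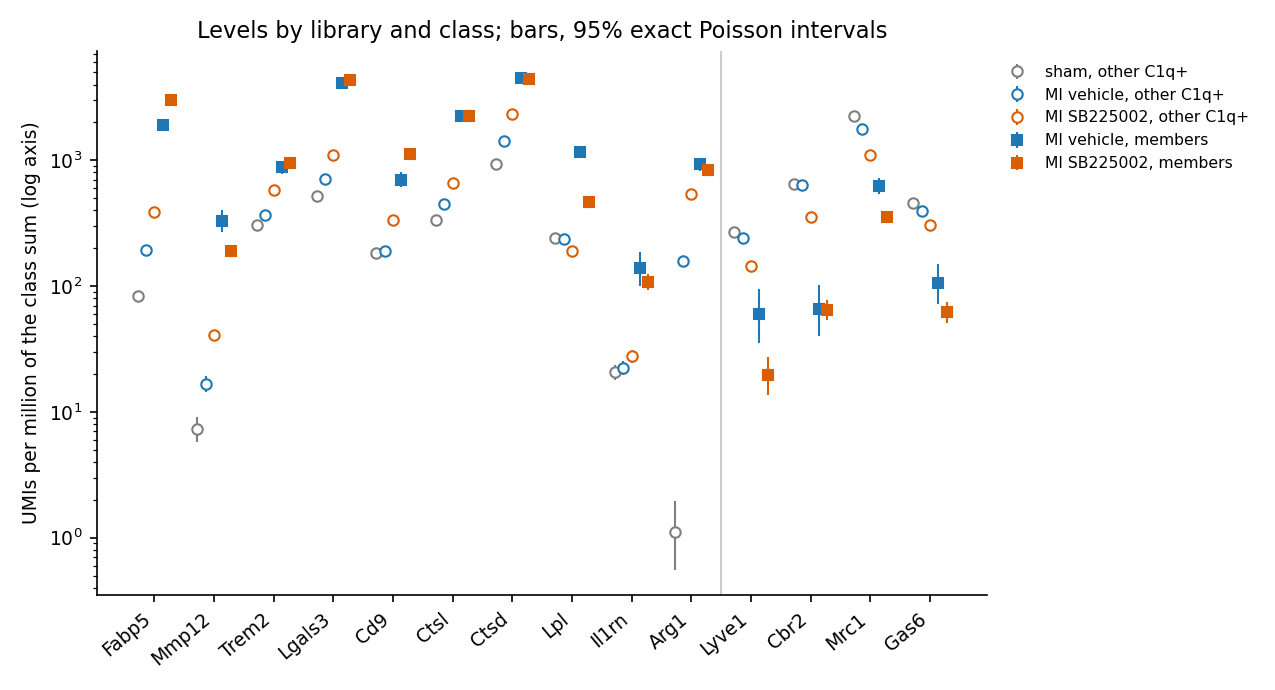
CPM (log axis) of 10 genes called higher and 4 called lower in the members, with exact 95% counting intervals, for the other C1q+ nondividing cells of the 3 libraries and the members of the 2 infarct libraries. For the first 10 genes both member points lie above all 3 points of the other cells, and for Lyve1, Cbr2, Mrc1 and Gas6 both lie below them.

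Genes of the lipid-associated macrophage state, the list nearest to the genes that chose the cells, were the most widely raised. The lists share some genes. All 27 genes of this list were tested, 25 were higher, none was lower, and their median log2 fold change was 1.11. Fabp4 (log2 fold change -0.29) and Cst7 (2.02, at 9.93 and 4.03 CPM in the members) did not pass. Lgals3, which encodes galectin-3, was at 4108 and 4384 CPM in the members against 524, 707 and 1100 CPM (log2 fold change 2.40, SE 0.11, adjusted p = 2.01e-47). Cd9, a tetraspanin, was at 702 and 1118 CPM against 184, 190 and 335 CPM (1.95, SE 0.13, adjusted p = 9.33e-28). Both genes lay above every value of the other cells. Lpl, the lipoprotein lipase, was at 1158 and 464 CPM against 242, 238 and 191 CPM (1.91, SE 0.14, adjusted p = 8.25e-25). Plin2, the coat protein of lipid droplets, was at 784 and 813 CPM against 407 and 464 CPM in the infarct libraries (1.01). Apoe, the main apolipoprotein of macrophages, differed by less than these (0.35, SE 0.06, adjusted p = 7.21e-06), with 13806 and 13023 CPM against 11258 and 11795 CPM. Itgax (CD11c; 2.62), Atp6v0d2 (3.29), Syngr1, a vesicle membrane protein (1.94), and Acp5, the tartrate-resistant acid phosphatase (1.89), were higher at low levels, with Itgax at 19.9 and 36.8 CPM in the members. The P10-MI_vehicle value of Itgax rested on 6 UMIs, 4 of them in 1 cell. The fit without the library block called 14 of the list's genes and DESeq2 22, all higher.

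Lysosomal enzymes digest what macrophages take up. Of 36 hydrolase genes, all tested, 16 were higher and 3 lower, with a median of 0.40. Ctsl (cathepsin L) was at 2261 and 2247 CPM against 335, 448 and 665 CPM (log2 fold change 2.18, SE 0.12, adjusted p = 1.36e-36). Ctsd (cathepsin D) was at 4475 and 4445 CPM against 1419 and 2335 CPM in the other cells of the infarct libraries (1.43, SE 0.10, adjusted p = 5.70e-27). Psap, the precursor of the saposins that help degrade sphingolipids, was at 4220 and 3318 CPM against 1495 and 1916 CPM (1.28). Both libraries gave nearly the same member level for the cathepsins. Ctsb rose by 0.95, Gla (alpha-galactosidase A) by 1.5 and Ctsk (cathepsin K) by 2.57 from 1.64 and 3.05 CPM in the other cells. Ctsc (-0.45), Ctsf (-1.56) and Arsb (-1.44) were lower, so the enzymes did not move as 1 block. The fit without the library block called 8 higher and 2 lower, and the thinned cells 7 and 1.

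Of 26 genes for lysosomal membrane proteins and subunits of the proton pump that acidifies the organelle, 25 were tested, 10 were higher and none lower, with a median of 0.35. They were the membrane proteins Cd63 (0.91) and Cd68 (0.98) and the pump genes Atp6ap1, Atp6v0c (0.73), Atp6v0d2, Atp6v0e (0.90), Atp6v1a (0.74), Atp6v1b2, Atp6v1c1 and Atp6v1e1. Lamp1 (0.32) and Lamp2 (0.15), the most abundant membrane proteins of the organelle, did not pass. DESeq2 called 7 of these genes, the thinned cells 3 and the fit without the library block 1. Of 12 genes for the MiT/TFE factors, which drive lysosomal genes, and their known targets, 11 were tested and 2 were higher, Mitf (0.62, adjusted p = 2.12e-03) and Fnip2 (0.52), while Tfeb (0.17) and Tfe3 (-0.33) did not pass.

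Promoters were then searched for letters based on the sites that the MiT/TFE factors and the AP-1 factors of macrophages are known to bind. The windows held 250 bases before and 50 after the gene start (RefSeq, GRCm38.p6, the assembly of the mm10 build the submitters name), and 356 of the 441 higher genes, 374 of the 495 lower genes and 9014 of all genes tested had one. The AP-1 letters TGANTCA occurred in 16.3% of the promoters of higher genes (58 of 356, interval 12.6 to 20.5%), 8.56% of those of lower genes, 6.09% of those of all genes tested and 8.97% of 27025 promoters in all. The MiT/TFE letters TCACGTGA occurred in 3.37%, 2.14%, 2.33% and 1.12% of the same sets, in 3 of 29 hydrolase promoters and in 4 of 19 of the membrane and pump genes. The shorter CACGTG, which lies inside TCACGTGA, occurred in 14.6%, 11%, 12.1% and 8.09%. All of these letters equal their own reverse complement, so 1 strand was searched. The N in TGANTCA stands for any base, so the matches include TGAATCA, as shown for Trem2 below, and the forms were not counted apart. A match is a description of letters and shows no binding. Examples are shown with the matched letters in capitals, for Gpnmb and 2 of the markers, for the interleukin-1 antagonist Il1rn, for Itgax and for the lysosomal genes Psap and Ctsd. They lie at chr6:49036515-49036543 (Gpnmb, plus strand, starting 8 bases after the gene start), chr9:7347319-7347347 (Mmp12, plus), chr17:48346381-48346409 (Trem2, plus), chr2:24336708-24336736 (Il1rn, plus), chr7:128129483-128129511 (Itgax, plus), chr10:60277599-60277627 (Psap, plus) and chr7:142387908-142387937 (Ctsd, minus).
Gpnmb: ccaggggcaagTGACTCAtgagcacgagt
Mmp12: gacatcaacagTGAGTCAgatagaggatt
Trem2: ttctccctcctTGAATCAcagcgcctacc
Il1rn: ttctgctagacTGAGTCAcgcctctggaa
Itgax: cccacctcctcTGAGTCAcgctgacaact
Psap: ctgcgcgacgcTGAGTCAagctgcgccca
Ctsd: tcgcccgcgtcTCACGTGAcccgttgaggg

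Most genes that handle cholesterol did not pass the test, but the share called higher was above the 3.71% of all genes tested. The median log2 fold change of the list was 0.35, against -0.06 over all genes. Of 23 genes tested of 24, 3 were higher, namely Soat1, which esterifies cholesterol for storage (0.76), Npc2, which carries it out of the lysosome (0.57), and the lipoprotein receptor Lrp1 (0.63). Pltp, the phospholipid transfer protein, was lower (-0.88). The efflux pumps Abca1 (-0.04) and Abcg1 (0.67) did not pass.

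Receptors for dying cells and debris split in both directions. Of 26 scavenger and efferocytosis genes, 23 were tested, 5 were higher and 8 lower. Mfge8, a bridge between phosphatidylserine and integrins, was at 92.7 and 62.2 CPM in the members against 20.1 and 18.4 CPM (2.06), and Clec7a (dectin-1; 1.30), Cd36 (0.53), Cd300lf (0.82) and Itgav (0.56) were also higher. In the P10-MI_vehicle members, 1 cell held 17 of the 28 Mfge8 UMIs, and 21.9% and 18.1% of members had a UMI of Mfge8. Gas6, the bridge to the receptors Axl and Mertk, was at 106 and 62.2 CPM against 458, 396 and 304 CPM (-2.00). Thus the 2 bridging proteins differed in opposite directions. Axl (-0.91), Stab1 (-1.23), Timd4 (-2.34), Cd163 (-1.92), Mrc1 (-1.44), Elmo1 (-0.60) and Cd5l (-4.92, at 0 and 0.576 CPM in the members) were lower, while Mertk (0.03) did not pass. Of 12 receptor genes for osteopontin or GPNMB, 9 were tested. The integrin genes Itgav, Itga5 (0.79) and Itgb2 (0.87) were higher, Itga9 was lower (-1.70), and Cd44 (0.32) did not pass.

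Several secreted and matrix-cutting proteins were higher. Of 24 protease and inhibitor genes, 22 were tested, 7 were higher and none lower. Besides Mmp12, Mmp14, a membrane-bound collagenase, was at 298 and 167 CPM against 57.6 and 92.7 CPM (log2 fold change 1.64), and the sheddase Adam8 at 255 and 252 CPM against 55.3 and 119 CPM (1.67). Mmp19 (0.96), Timp1 (0.87), Timp2 (0.48) and the urokinase receptor Plaur (0.76) made up the rest. Of 15 matrix genes tested of 18, 6 were higher, among them fibronectin, Fn1, at 2012 and 2505 CPM against 54.1, 374 and 1218 CPM (1.86), and thrombospondin 1, Thbs1 (1.06). The fibroblast collagens Col1a1 (-1.51) and Col3a1 (-1.67) were lower, with Sparc (-1.03) and Cyr61 (-2.28).

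Of 24 growth factor and receptor genes, 17 were tested and 2 were higher. Il1rn, which encodes the interleukin-1 receptor antagonist, was at 139 and 108 CPM against 20.7, 22.3 and 27.7 CPM (2.36, SE 0.20, adjusted p = 4.02e-21). Csf1, the growth factor that keeps macrophages alive, was at 29.8 and 48.9 CPM against 8.91 and 8.04 CPM (2.51). Its P10-MI_vehicle value in the members rested on 9 UMIs, 5 of them in 1 cell. Igf1 (0.26), Pdgfb (-0.12) and Tgfb1 (-0.04) did not pass, and Nrp1 was lower (-0.59). Fam20c, the secretory-pathway kinase that phosphorylates osteopontin, was at 119 and 100 CPM against 25.6 and 32.7 CPM (1.97).

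Arg1, the arginase that marks repair-associated macrophages of the early infarct, was at 927 and 836 CPM in the members against 1.10 CPM in P10-sham_vehicle, 159 CPM in P10-MI_vehicle and 544 CPM in P10-MI_SB225002 (1.68, SE 0.16, adjusted p = 1.02e-17). It was detected in 56.2% and 62.7% of members against 10.8% and 30.0% of the other cells, and after thinning in 39.3% and 45.8% against 6.90% and 21.1%. Of the 280 Arg1 UMIs in the P10-MI_vehicle members, 115 came from 1 cell. Of the 12 genes of arginine metabolism and Arg1 macrophages, all tested, 6 were higher and 1, Saa3, was lower, but DESeq2 called 1 of them and the fit without the library block none.

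Of 26 genes of glycolysis and hypoxia, 25 were tested, 11 were higher, none was lower and 14 did not pass, with a median of 0.65. They were Aldoa (0.98, at 897 and 999 CPM against 412 and 662 CPM), Pgam1 (1.18), Pgk1 (0.99), Pkm (0.83), Ldha (0.83), Tpi1, Gapdh (0.72), Eno1, the transporters Slc2a1 (0.99) and Slc16a3 (1.0), and Hilpda (1.52), a hypoxia-induced lipid droplet protein. DESeq2 called 9 of them, the thinned cells 4 and the fit without the library block 2. Of 21 respiratory chain genes, all tested, 5 were higher and none lower (median 0.28). Among genes of the oxidative stress response, 6 of 16 tested were higher and none lower: the peroxiredoxins Prdx1 (0.88) and Prdx6 (0.81), the glutathione peroxidases Gpx1 (0.80) and Gpx4 (0.44) and the metallothioneins Mt1 (0.89) and Mt2 (0.76). Hmox1 (0.25), the heme-degrading enzyme, did not pass. The ferritin genes Ftl1 (0.94) and Fth1 (0.75), which store iron, were higher, whereas the iron exporter Slc40a1 was lower (-1.38).

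Chemokines and interferon-stimulated genes were also called higher, but for some of them 1 cell held most of the UMIs. Other such genes were found in many members, with a UMI of Ccl2 in 53.1% and 58.8% and of Ifitm3 in 78.1% and 86.8%. Of 23 cytokine and chemokine genes tested of 26, 10 were higher and 1 lower. When the highest cell of each gene was left out of each class and library, a choice made after seeing the data, 3 of 21 were higher and 1 lower. Of 19 interferon-stimulated genes tested of 20, 8 were higher, among them Rsad2 (2.74), Ifit3 (1.74) and Isg15 (1.12). Without the highest cell per gene, 1 was. A single P10-MI_vehicle member held 65 of the 67 Rsad2 UMIs, 28 of 31 Isg15 UMIs, 27 of 30 Ifit3 UMIs and 122 of 148 Ccl8 UMIs, and in P10-MI_SB225002 1 member held 55 of 107 Rsad2 UMIs. A second P10-MI_vehicle member held all 26 Cxcl1 UMIs and 25 of the 46 UMIs of Clec4e, a C-type lectin receptor called higher (1.96). The fit without the library block called none of the cytokine genes. Most UMIs of these interferon-stimulated genes in the P10-MI_vehicle members thus came from 1 cell.

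Genes of resident cardiac macrophages were lower as a group. Of 19 tested of 20, 14 were lower and none higher, with a median of -1.24. Cbr2, a carbonyl reductase, was at 66.2 and 65.0 CPM in the members against 652, 640 and 352 CPM (log2 fold change -2.59, SE 0.17, adjusted p = 3.07e-29). Lyve1, the hyaluronan receptor, was at 59.6 and 19.6 CPM against 269, 242 and 144 CPM (-2.42, SE 0.20, adjusted p = 1.16e-20). Mrc1, the mannose receptor, was at 629 and 353 CPM against 2238, 1784 and 1105 CPM (-1.44, adjusted p = 6.45e-20). For all 3 genes the members lay below every value of the other cells. The genes were still present, with a UMI of Mrc1 in 78.1% and 66.7% of members and a UMI of Folr2, the folate receptor of resident macrophages, in 46.9% and 45.6% (log2 fold change -0.83). The transcription factor Maf (-1.27), the fractalkine receptor Cx3cr1 (-1.24) and Vsig4 (-2.60) were lower too. Adgre1 (-0.20) and Mertk did not pass.

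Markers of monocytes did not move together. Of 20 genes, all tested, 7 were higher, among them Lyz2 (lysozyme; 0.99), S100a4 (1.28) and Napsa (0.76), and 2 were lower, Plac8 (-1.02) and Ifitm6 (-0.81). Ccr2, the receptor that brings monocytes to the infarct, was at 43.0 and 129 CPM in the members against 89.0 and 116 CPM (0.01), and Ly6c2 was at 19.9 and 55.2 CPM against 35.7 and 60.0 CPM (-0.10). Neither passed. Of 11 MHC class II genes, 6 were lower, among them H2-Aa (-2.34) and Cd74 (-1.36), and the protease Ctss was higher (1.2).

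Of 22 transcription factor genes of myeloid cells, 4 were higher (Mitf, Bhlhe40 at 1.11, Cebpb at 0.41 and Id2 at 0.49) and 5 lower, among them Maf and Mef2c (-1.22). Of 25 immediate-early genes tested, 6 were lower, among them Jun (-0.46) and Fosb (-0.63), and Nfkbia was higher (0.44). Of 13 heat shock genes, none passed in either direction, so these genes of cell stress gave no call. Complement genes outside the choice gave 2 higher and 3 lower of 12 tested. Of 21 genes of dividing cells, 4 were lower and none higher, in classes that had both been chosen for the absence of Mki67 and Top2a.

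**Figure D4:**
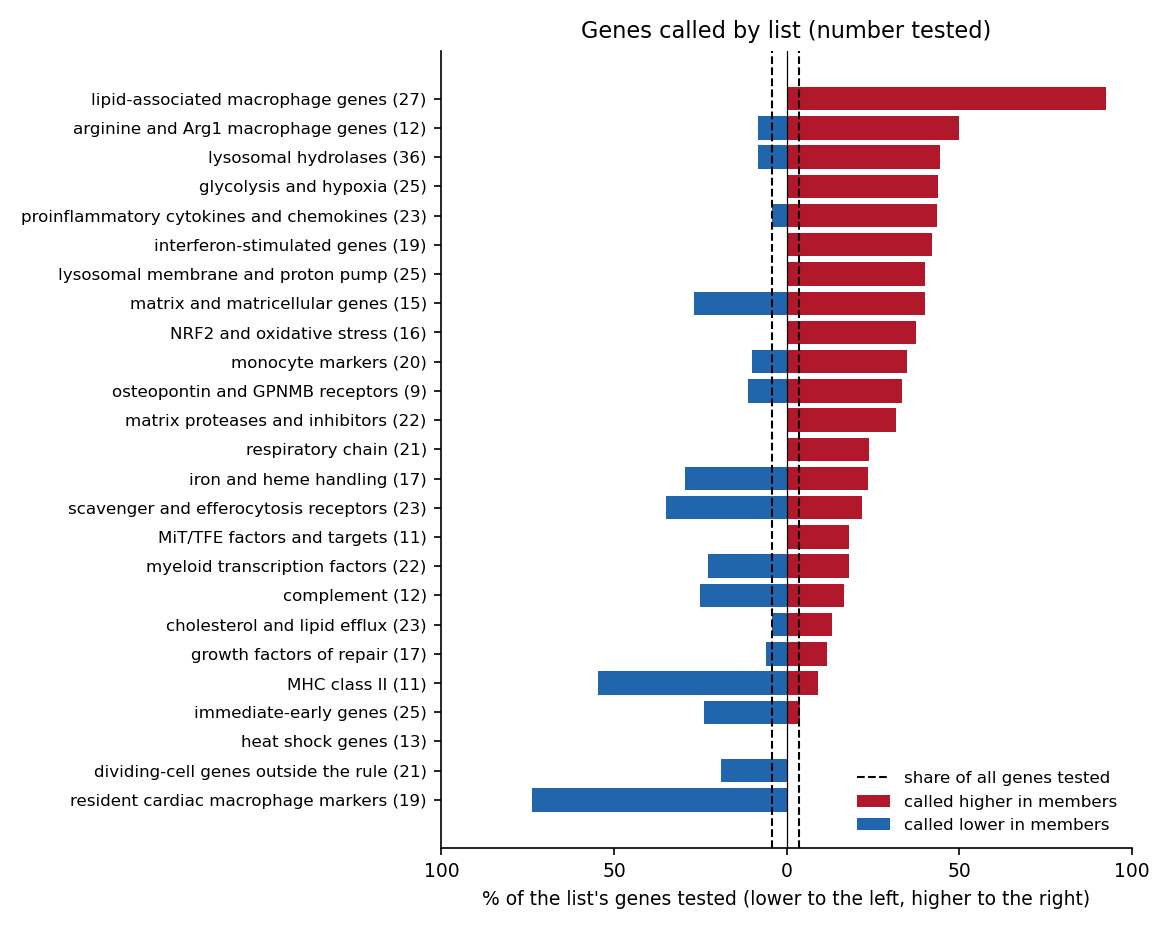
Percentage of the tested genes of each of 25 lists that were called higher (bars to the right) or lower (bars to the left) in the members than in the other C1q+ nondividing cells, with dashed lines at the shares of all genes tested, 3.71% and 4.16%. The lipid-associated list reaches furthest to the right and the resident list furthest to the left.

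Among the remaining genes with the strongest loss in the members were the enzyme Hpgd, which inactivates prostaglandins (19.9 and 30.5 CPM against 192, 202 and 130 CPM, log2 fold change -2.22), the membrane proteins Tmem176a (-2.35) and Tmem176b (-2.15), the noncoding RNA Mir99ahg (-2.00) and the immunoglobulin chain Ighm (-2.01), each lower in both libraries. The neutrophil-type genes S100a9 (-2.55), S100a8 (-2.42) and BC100530 (-2.07), and the acute-phase gene Saa3 (-2.22), were called lower by the same test but differed between libraries. S100a9 was at 49.6 CPM in the members against 4528 CPM in the other cells of P10-MI_vehicle, and at 4265 against 5093 CPM in P10-MI_SB225002. In P10-MI_SB225002 the members held 12629 UMIs of S100a8 and S100a9, 43.7% of them in 3 cells and with a median of 2 per cell. DESeq2 called none of these 4 genes.

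Transcripts listed for other cell types were present in the members and in the other macrophages. The 12 neutrophil genes summed to 238 CPM in the P10-MI_vehicle members, with Ly6g, Ltf, Cxcr2, Elane and Mpo at 0, and to 8109 CPM in the P10-MI_SB225002 members, with none at 0, against 10560 and 10014 CPM in the other cells and 4497 CPM in P10-sham_vehicle. The 10 fibroblast genes summed to 281 and 341 CPM against 264 and 322 CPM, and Dcn, Lum, Pdgfra, Smoc2 and Tcf21 were at 0 in the P10-MI_vehicle members. The 11 cardiomyocyte genes summed to 192 and 219 CPM against 339 and 438 CPM, the 10 endothelial genes to 162 and 200 CPM against 160 and 375 CPM, the B cell genes to 132 and 53.5 CPM against 120 and 131 CPM, and the T and NK cell genes to 36.4 and 14.4 CPM against 71.2 and 9.16 CPM. By these sums, none of these lists was higher in the members of both libraries than in the other cells except that of fibroblasts, where the differences were small. Within the fibroblast list Gsn had 73 and 517 UMIs in the members, against 3 and 15 of Col1a1. Within the endothelial list Fabp4, also a lipid-associated gene, had 45 and 267, against 1 and 15 of Kdr. Whether these transcripts came from other cell types was not tested. Counted by cells, 53.1% and 61.3% of members held 2 or more UMIs of the fibroblast list, against 30.5% and 33.8% of the other cells. For the neutrophil list it was 56.2% and 66.7% against 38.4% and 51.0%, and for the endothelial list 18.8% and 22.1% against 10.6% and 11.2%. For the mural list it was 6.25% and 7.35% (2 and 15 members) against 1.08% and 2.57%. The cardiomyocyte list went the other way (25% and 30.4% against 37.7% and 39.3%), as did the B cell list in P10-MI_SB225002. The part of depth in these shares was not tested. In the test, 6 of 10 neutrophil genes, 6 of 11 cardiomyocyte genes and 3 of 7 fibroblast genes were lower, and 1 fibroblast gene was higher. The part of these transcripts in the other results was not tested.

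The most similar cells by the choice were the Spp1-high cells with little C1q, 0 in P10-sham_vehicle, 59 in P10-MI_vehicle and 254 in P10-MI_SB225002, which reached 1% Spp1 but less than 0.3% C1q. Gpnmb was not required of them, and it had a UMI in 28 and 191 of these cells. C1q and Gpnmb thus separated the classes by choice and are no result. Of 8386 genes tested, 72 were higher in the members (0.859%) and 33 lower (0.394%). The lipid-associated genes gave 1 call each way among 27 (median -0.05), with Apoe higher (log2 fold change 1.67, at 13806 and 13023 CPM against 3075 and 5841 CPM) and Cd9 lower (-0.91). For Fabp5 (-0.05, adjusted p = 0.938), Mmp12 (-0.40, adjusted p = 0.469) and Trem2 (0.76, adjusted p = 0.0926) no difference was detected, which does not show that the levels were equal. No pump gene and 2 of 35 hydrolase genes were called, both higher. The raised lipid and lysosomal genes therefore gave few calls between these classes.

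Instead, genes of resident macrophages differed between them. The C1q limit split these classes, with a median C1q share of 0.92% and 0.74% in the members against 0.0094% and 0.035%. Genes that vary with C1q were therefore bound to differ, and the calls below are not independent of that choice. Of 17 resident genes tested, 11 were higher in the members and 1, Ccl24, lower, with a median of 1.35. Fcrls, an Fc receptor-like gene of resident macrophages, was at 301 and 271 CPM against 25.5 and 28.6 CPM (log2 fold change 3.37, SE 0.22, adjusted p = 3.20e-04), Mrc1 differed by 2.52 (adjusted p = 7.89e-04) and Folr2 by 2.95. The neonatal Fc receptor gene Fcgrt (2.65), the chemokine Ccl8 (5.63) and Rsad2 (2.71) completed the 5 highest, the last 2 resting largely on 1 cell of P10-MI_vehicle. Monocyte markers were lower, 7 of 18 with 1 higher and a median of -1.23, among them Ccr2 (-1.50) and Vcan (versican; -2.48). Cxcl3, a neutrophil-attracting chemokine, was at 0 and 1.73 CPM in the members against 313 and 50.3 CPM (adjusted p = 7.89e-04). Csf1 was at 29.8 and 48.9 CPM against 280 CPM in both libraries (-2.71, adjusted p = 7.89e-04), and F10, coagulation factor X, at 69.5 and 73.7 CPM against 320 and 261 CPM (-1.95). Il1rn was lower as well (-1.43). The neutrophil genes summed to 15126 and 8290 CPM in the C1q-low cells, and their part in these differences was not tested.

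Against the Lyve1+Folr2+ C1q+ cells (449, 470 and 292), the C1q+ nondividing cells outside the members with at least 1 UMI of each gene, the members had 634 of 9760 genes higher (6.5%) and 541 lower (5.54%). Mmp12 differed most, at 331 and 190 CPM against 4.38 and 2.55 CPM (log2 fold change 6.4), followed by Fabp5 at 1907 and 3006 CPM against 112 and 143 CPM (4.43). Rsad2 (3.29), Mmp14 (3.24) and Rgs1, a brake on chemokine receptors (3.21), came next. The members lay above the Lyve1+Folr2+ cells in both libraries for each of these 5 genes. Of the Rsad2 UMIs, 1 cell held 65 of 67 in the P10-MI_vehicle members and 1 held 55 of 107 in those of P10-MI_SB225002. For Mmp12, 1 cell held 44 of the 100 UMIs of the P10-MI_vehicle members. Lower were Cbr2 (-3.77), S100a9 (-3.26, again with 49.6 CPM in 1 library and 4265 CPM in the other), the lysophosphatidylserine receptor gene Gpr34 (-3.20) and Cd163, the hemoglobin scavenger receptor (-3.19), besides Lyve1, which chose the comparison cells. Of the lipid-associated genes 24 of 26 were higher, of the hydrolases 17 of 36 higher and 2 lower, and of the glycolytic genes 15 of 23 higher.

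Placed beside both classes, the members held intermediate levels of resident genes. Mrc1, for example, stood at 629 and 353 CPM in the members, and Folr2 at 129 and 143 CPM, with both genes below the other C1q+ cells and above the Spp1-high C1q-low cells in both libraries. Both comparisons use the same member sums and are not independent. Genes that vary with Spp1 or with C1q were bound to differ, because those genes chose the classes.

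Within the members, SB225002 and vehicle were compared by the ratio of CPM, with no test. The P10-MI_vehicle sum held 302116 UMIs from 32 cells and the P10-MI_SB225002 sum 1737599 UMIs from 204. Of 6747 genes with at least 30 UMIs in both together, 469 were at least 2-fold higher (6.95%) and 168 at least 2-fold lower (2.49%) with SB225002, and for 29 and 13 the whole counting interval lay beyond 2-fold. Of the 5 markers, Spp1, Gpnmb and Trem2 differed less between the libraries than Fabp5 (0.66, 0.53 to 0.78) and Mmp12 (-0.80, -1.13 to -0.46). For Mmp12, 44 of the 100 UMIs of the P10-MI_vehicle members came from 1 cell, and 25% and 22.1% of members had a UMI. Spp1 differed by a log2 ratio of 0.21, Gpnmb by 0.36 (0.18 to 0.55), Trem2 by 0.12 (-0.07 to 0.31), Ctsd by -0.01 (-0.09 to 0.07) and Ctsl by -0.01 (-0.13 to 0.11). In the other C1q+ nondividing cells the ratios of the same genes were 1.76, 0.95, 0.66, 0.72 and 0.57. Thus the libraries differed more outside the members than within them in these genes, as is fixed for Spp1 and Gpnmb by the choice. Trem2, Ctsd and Ctsl were higher in the members than in the other cells, and the same Spp1 limit chose the members of both libraries. Their ratios are therefore not independent of the choice. None of 34 hydrolase genes and none of 24 membrane and pump genes reached 2-fold, and among 26 lipid-associated genes Lpl did so (-1.32, -1.50 to -1.13). Of the 350 Lpl UMIs of the P10-MI_vehicle members, 122 came from 1 cell, the one with the most Mmp12 UMIs. A UMI of Lpl was found in 90.6% of the P10-MI_vehicle members and 61.3% of the P10-MI_SB225002 members.

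Other genes differed between the members of both libraries. Higher with SB225002 were Hmox1 at 268 and 622 CPM (log2 ratio 1.21, interval 0.89 to 1.56), Prdx1 (0.75) and Ccr2 (1.59, 0.79 to 2.52). A UMI of Hmox1 was found in 65.6% and 62.3% of members, with a median of 1 in both libraries. In P10-MI_SB225002, 1 cell held 207 of the 1081 Hmox1 UMIs. For Prdx1 the medians were 6.5 and 11 UMIs, and 1 P10-MI_SB225002 cell held 438 of 3798. Mmp14 (-0.83) and Mrc1 (-0.83) were lower. For Mmp12, whose ratio in the other cells was 1.29, the P10-MI_vehicle value rested on 100 UMIs. Arg1 was at -0.15 (-0.34 to 0.04) in the members and 1.77 in the other cells. Of the monocyte markers 10 of 17 were at least 2-fold higher and none lower, with Plac8 at 9.93 and 115 CPM, and of the neutrophil genes 7 of 8. The P10-MI_vehicle value of Plac8 rested on 3 UMIs, and 19.1% of the P10-MI_SB225002 members had one. The monocyte markers Vcan and Ifitm6 had 3 and 5 UMIs in the P10-MI_vehicle members. The 5 highest ratios were those of the stefin A genes Stfa2, Stfa1 and BC100530, whose near-identical copies make read assignment uncertain, of S100a9 and of Retnlg. They ranged from 5.57 to 6.89 and rested on 1 to 15 UMIs in the P10-MI_vehicle members. Without the cells that held 20 or more UMIs of S100a8 and S100a9, a choice made after seeing the data, the ratio of S100a9 was 0.94 and that of BC100530 0.55. The 5 lowest were Ccl8 (-3.06), Ppbp (-2.62), Rsad2 (-1.85), the Mediator kinase gene Cdk8 (-1.58) and Cmss1 (-1.43). For Cdk8 and Cmss1 the other cells gave ratios of -1.21 and -1.38, while for Ccl8, Ppbp and Rsad2 most vehicle UMIs came from 1 cell.

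**Figure D5:**
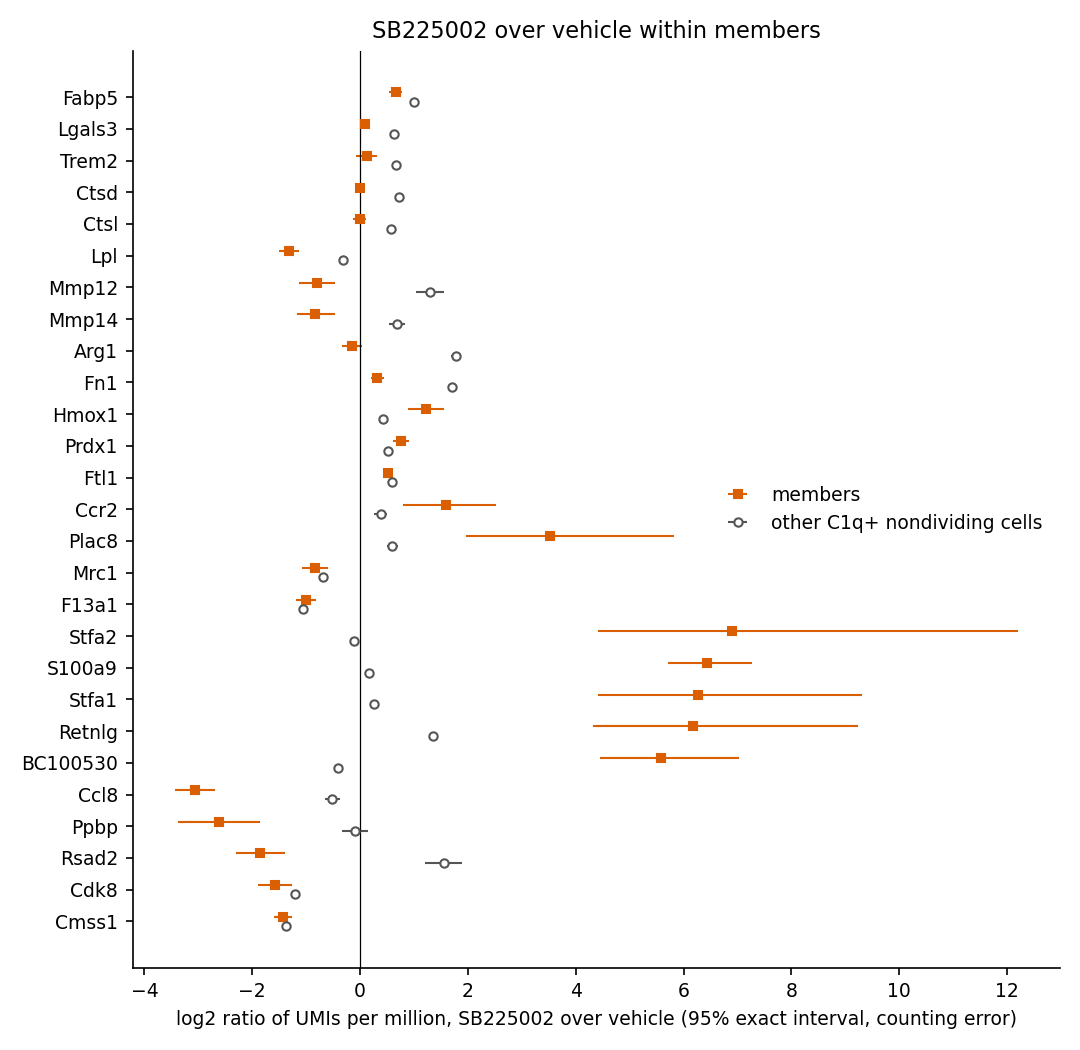
Log2 ratio of CPM, SB225002 over vehicle (x axis, exact 95% counting intervals), of 27 genes (y axis) in the members (squares) and the other C1q+ nondividing cells (circles). Ctsd and Ctsl sit at 0 in the members, and the 5 neutrophil-type genes Stfa2, S100a9, Stfa1, Retnlg and BC100530 lie above 5 with wide intervals.

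The members also varied among themselves. Thinned to 2000 UMIs, Lgals3 rose with Spp1 across members, with a Spearman correlation of 0.52 over 28 cells of P10-MI_vehicle and 0.37 over 192 cells of P10-MI_SB225002, and Cd9 gave 0.34 and 0.27. For Trem2 the values were 0.09 and -0.11, and for Apoe -0.11 and -0.24. C1qa gave -0.26 and -0.18. The cells of a library share its depth and preparation, and Spp1 takes up part of the 2000 UMIs, so these values are descriptions.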

How the data were processed

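Cells sorted as CD45+F4/80+7AAD– from pooled hearts were profiled by single-cell RNA-seq, with 1 library per group. The authors deposited whole-number UMI counts per gene (54752 symbols) and barcode. The submitters' processing notes name Seurat 4.1.0 and the mm10 build, and the aligner is not given in the sources used here. No doublet caller was run, and cells with transcripts of other lineages were instead left out as an alternative. The members and gene lists were chosen with earlier results of these data known.

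Deposited counts were summed per library and class. Members were compared with each other class in the 2 infarct libraries by edgeR 4.0.16 (R 4.3.3; TMM, filterByExpr, quasi-likelihood test, library as block, Benjamini-Hochberg adjustment over all genes tested, threshold 0.05). The 7 genes that chose the cells were left out of the adjustment. The replicate of each class is its library, so p-values rest on 2 libraries. DESeq2 1.42.0 was an alternative. SB225002 and vehicle were compared by CPM ratios with exact conditional intervals, shares by exact binomial (Clopper-Pearson) intervals, all at 95%, and differences of shares by Newcombe intervals. The floor of a count of 0 is 3 counts. Scripts were tested on simulated data. Python 3.11.15 with numpy 2.4.6, scipy 1.17.1, pandas 2.3.3 and matplotlib 3.10.9 was used.

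Genes were named by rule: the genes of the choice and the markers; the 12 highest and 12 lowest called against the other C1q+ cells with a mean of at least 100 CPM in either class and the same direction in both libraries; the 5 highest and 5 lowest of each other comparison (for SB225002 over vehicle at least 100 CPM in either library and 30 UMIs in both); and, of each list, up to 5 with the highest mean CPM and up to 3 called each way. Other genes named in the text were added after their values were seen. Some genes are not reported here. Other settings tried were normalization, filters, limits of the choice, depth by thinning, and removal of single libraries or cells.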

Additional observations from a re-analysis of the deposited data

Results flagged for a closer look

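For 3 genes the log2 ratio of members to other C1q+ nondividing cells had opposite signs in the infarct libraries. For each of them the interval in 1 of the libraries included 0, so the sign there is not established, and the difference between libraries was not tested, since there was 1 library per group. Ccl8, a monocyte-attracting chemokine, had a log2 ratio of 2.37 (95% counting interval 2.11 to 2.62) in P10-MI_vehicle and -0.17 (-0.49 to 0.13) in P10-MI_SB225002, with 122 of the 148 UMIs of the P10-MI_vehicle members in 1 cell. Cxcl1, a neutrophil-attracting chemokine, had 4.09 (3.35 to 4.77) and -2.02 (upper bound 1.17), the latter from 0 UMIs in the members and so set by the count added to 0, with all 26 UMIs of the P10-MI_vehicle members in 1 cell. Myl3, a myosin light chain of cardiomyocytes, had 0.23 (-0.85 to 1.03) and -1.42 (-2.00 to -0.93).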

How the results depend on the processing

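No paired analysis was possible because each condition has 1 library; the library served as the block, and the values without it are given here. Leaving out either infarct library leaves 1 library and no test, so only its log2 ratios were computed. No value for P10-MI_vehicle over P10-sham_vehicle within the members could be given, since the latter had 0 members, and without cells holding other-lineage UMIs too few P10-MI_vehicle members remained for the contrasts to be fitted. Against the other C1q+ cells, 936 calls became 164 without the library block (85 higher, 79 lower), 267 by DESeq2 (167 and 100, or 62.5% higher against 47.1%) and 200 in thinned cells (108 and 92, 196 of them among the 936). Without the highest cell per gene, 58.5% of 826 calls were higher. Against the Spp1-high C1q-low cells, 105 calls became 428 without a filter on low counts (231 and 197), 31 without the library block (27 and 4), 39 by DESeq2 (25 and 14), 65 without cells of the shorter lineage list (43 and 22), 189 without cells of 20 or more S100a8 and S100a9 UMIs (116 and 73) and 227 without the highest cell per gene (147 and 80). The share higher, 68.6%, became 87.1% without the library block, 54.0% without the filter and 50% in thinned cells. Against the Lyve1+Folr2+ cells, 1175 calls became 663 without the library block (360 and 303), 333 by DESeq2 (205 and 128) and 496 in thinned cells (276 and 220). The difference in member share, 8.54 points, was 10.8 at 0.5% Spp1, 4.85 at 2% Spp1, 12.0 without the Gpnmb requirement, 10.3 at 0.1% C1q, 3.79 at 1% C1q, 6.37 in thinned cells and 2.02 without cells holding other-lineage UMIs. The 637 genes at least 2-fold apart between SB225002 and vehicle became 247 in thinned cells (170 and 77) and 1252 by the mean of CPM per cell (877 and 375). Reversed were S100a8 without the cells of 20 or more S100a8 and S100a9 UMIs (0.46) and Saa3 in thinned cells (1.21), both against the other C1q+ cells, and Rsad2 over SB225002 and vehicle at 2% Spp1 (2.40). The causes were not tested. The 32 members of P10-MI_vehicle, with 302116 UMIs, limit every comparison of low genes.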
